A study of Mus musculus with 48 samples.

Results

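The comparison here was between PPARγ knockdown (PPARγ KD) cells on day 6 and the same cells on day 3 of adipocyte differentiation. It rested on 6 arrays of the 48 in the series, the 3 replicates of each of these days, chosen by their siRNA, day and replicate labels alone. All arrays came from 3T3-L1 cells (ATCC, CL-173), a mouse fibroblast line that turns into fat cells when given hormones. PPARγ KD cells had been transfected with 50 nM of a SMARTpool siRNA against PPARγ, and control cells with 50 nM of the siCONTROL non-targeting pool. In both, confluent cells received IBMX, an inhibitor of phosphodiesterases (0.5 mM), with the glucocorticoid dexamethasone (0.25 µM) during the first 48 h, then insulin (5 µg/ml) with rosiglitazone, a PPARγ ligand (1 µM), during the next 48 h, with the medium replaced every 2 days. The study's scheme set IBMX and dexamethasone 2 days ahead of rosiglitazone, and its sampling ran from day -2. Day 0 was therefore taken as the addition of rosiglitazone. On that count, days 3 and 6 fell after the hormone mixtures had been withdrawn. The knockdown was transient and was made with 1 pool of siRNAs in 1 cell line, and the labels call the 3 replicates independent biological samples.

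PPARγ is a nuclear receptor that binds DNA with RXR and switches on the genes of the fat cell. In 3T3-L1 cells, IBMX and dexamethasone induce C/EBPβ and C/EBPδ, which in turn induce PPARγ and C/EBPα, and these keep each other expressed in the mature cell. Fat cells store triglyceride in droplets coated by perilipin and CIDE proteins and secrete hormones such as adiponectin and the serine protease adipsin.

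Each value below is a log2 signal, background-corrected and scaled as described under the processing, and each change is the fitted day 6 minus day 3 difference with its standard error (SE). A probe was above background on an array where its detection p was under 0.01, which held for 33.5 to 38.8% of the 24613 probes on the day 3 arrays and 33.8 to 40.4% on the day 6 arrays. Replicate 3 stood apart: array correlations were 0.993 to 0.997 among replicates 1 and 2, and 0.967 to 0.979 between these and replicate 3. The replicate number was therefore kept as a block in the fit, and the counts without each replicate are given where they moved. These are bulk samples, in which more cells of a kind and more RNA per cell cannot be told apart.

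Pparg itself, the target of the siRNA, rose in PPARγ KD cells between these days and stayed far below control. Its brightest probe gave 8.89, 8.90 and 8.78 in replicates 1 to 3 on day 3, and 9.81, 9.81 and 9.70 on day 6. The day means in between were 9.37 on day 4 and 9.57 on day 5. The lowest day 6 array was above the highest day 3 array, and the change was 0.92 (SE 0.11, Bonferroni-adjusted p = 2.20e-05). The adjusted p became 0.0501 without replicate 2, and with arrays scaled to equal medians the change was 0.77 (Bonferroni-adjusted p = 0.634). Control cells had 11.61, 11.38 and 11.46 on day 3 and 12.09, 12.02 and 12.21 on day 6, a change of 0.63 (Bonferroni-adjusted p = 0.0637). The knockdown was 6.18-fold on day 3 and 5.04-fold on day 6 (Bonferroni-adjusted p = 2.63e-19 and 1.57e-17). The difference between the KD and control changes was 0.29 (SE 0.16) and did not pass the test (Bonferroni-adjusted p = 1). Another Pparg probe was above background on 0 of 3 day 3 arrays and 2 of 3 day 6 arrays in PPARγ KD cells. It rose at least 1.055-fold without passing the test (Bonferroni-adjusted p = 0.119). The remaining Pparg probe was above background on no PPARγ KD array of either day, so its KD change was not measured. In control cells it went from 0 to 3 of 3 arrays above background and rose (Bonferroni-adjusted p = 0.000921). Its fitted difference, −1.01, had the opposite sign to that of the brightest probe, rested on values at background and did not pass the test.

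Over all probes, 338 changed from day 3 to day 6 in PPARγ KD cells, with p-values after Bonferroni adjustment of 0.05 or less. Of these, 212 rose (0.861% of probes) and 126 fell (0.512%). By the Benjamini-Hochberg (BH) adjustment 2322 passed, 1274 higher and 1048 lower. Each of the 338 moved the same way in 3 of 3 replicate pairs. The median rise was 0.81 and the median fall was −0.63, and 77 rises but 17 falls were past 2-fold. Leaving out replicate 1, 2 or 3 gave a Bonferroni count of 86, 95 and 248. The median change was 0.13 over all probes and −0.00 over the 9507 probes above background on at least 3 of the 6 arrays. Scaling to equal array medians moved the median of all probes to −0.02 and the share of rises among the calls from 62.7% to 37.3%. By gene, taking the brightest probe of each of 18750 genes, 1.02% rose and 0.587% fell by Bonferroni, and 5.69% rose and 4.55% fell by BH. The counts for gene lists below are read against these shares, and list medians against 0.13 over all genes and −0.00 over probes above background. Of the called probes, 162 rises and 111 falls were above background on all 6 arrays. The shares were not computed for genes above background alone, which limits them for lists of mostly detected genes.

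More probes passed the test in the first of the 3 daily steps than in the later ones. From day 3 to day 4, 85 probes changed in PPARγ KD cells (66 higher, 19 lower), against 15 from day 4 to 5 and 5 from day 5 to 6. The 212 rises had median steps of 0.44, 0.18 and 0.20 over the 3 successive days, and the 126 falls had −0.27, −0.14 and −0.20. Between days 4 and 5, whose arrays the day 6 minus day 3 difference does not contain, 174 of the 212 rises (82.1%) were also higher, against 66.4% of all probes. Of the 126 falls, 108 (85.7%) were also lower, against 33.6% of all probes.

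Proteins that fat cells secrete were among the largest rises. Cfd, which encodes adipsin, a serine protease of the complement system, gave 7.73, 7.71 and 7.05 on day 3 and 12.83, 12.85 and 13.26 on day 6. That is a 44.7-fold rise (5.48, SE 0.20, Bonferroni-adjusted p = 3.97e-22), with day means of 10.30 on day 4 and 12.14 on day 5. Control cells went from a mean of 13.30 to 15.53. The PPARγ KD mean on day 6 was 12.98, and its highest array, at 13.26, overlapped the control arrays of day 3. Adipoq, which encodes adiponectin, gave 10.43, 10.52 and 9.62 on day 3 and 12.50, 12.46 and 12.39 on day 6 (change 2.26, SE 0.23, Bonferroni-adjusted p = 1.16e-07), while control cells had 14.66 and 15.20. Rarres2, which encodes the chemoattractant chemerin, gave 8.43, 8.43 and 7.82 and then 10.46, 10.65 and 10.44 (change 2.29, SE 0.22, Bonferroni-adjusted p = 4.56e-08). Neither gene's day 3 and day 6 arrays overlapped, and in both the third replicate was the lowest on day 3. Of the 15 genes on the array in the list of adipocyte secreted proteins, 4 rose and 1 fell by Bonferroni, and 7 rose and 1 fell by BH, with a median change of 0.46. The fall was that of Lcn2, described below. Agt, which encodes angiotensinogen, changed by 0.49 without passing BH (adjusted p = 0.0752).

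**Figure D1:**
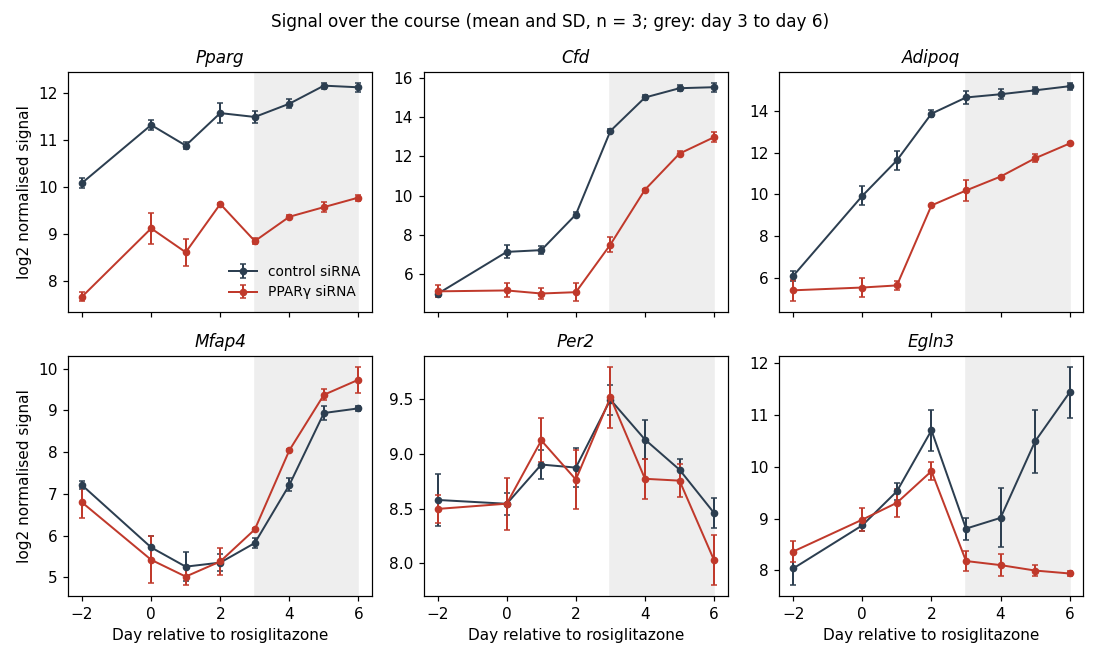
Log2 signal of selected genes (y axis) against day (x axis) in PPARγ KD and control cells. The day is counted from rosiglitazone as taken in the opening paragraph. Points are at the mean, with bars for the SD of 3 replicates and the days compared in grey. Cfd climbs from 7.50 on day 3 to 12.98 on day 6 in PPARγ KD cells, below 13.30 to 15.53 in control cells, and Egln3 goes from 8.81 to 11.44 in control cells and from 8.18 to 7.94 in PPARγ KD cells.

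Genes of lipid storage rose. In the list of lipid droplet and lipolysis genes, 7 of 19 rose by Bonferroni and 13 by BH, with a median change of 0.44 and 13 of the 19 above background. Without replicates 1, 2 and 3 the Bonferroni count was 5, 4 and 8 and the BH count 8, 9 and 12, and Cidec lost the Bonferroni call without replicate 2. Cidec, a protein that fuses lipid droplets, gave 8.91, 9.06 and 8.37 on day 3 and 10.13, 10.24 and 10.55 on day 6 (change 1.52, SE 0.22, Bonferroni-adjusted p = 0.000587). In control cells it was 14.24 and 13.73, a change that did not pass the test, and the difference of the changes was 2.04 (Bonferroni-adjusted p = 0.00193). Mrap, an accessory protein of melanocortin receptors, was not above background on any day 3 array and rose at least 2.90-fold (Bonferroni-adjusted p = 2.15e-07). Ces1f, a carboxylesterase, rose at least 1.53-fold from below background. The probe named CES3 rose by 1.48, and since the carboxylesterases form a family of close copies, its gene is uncertain. Plin1, the droplet coat protein perilipin, passed the test by Bonferroni as a rise. It was not above background on any PPARγ KD array of either day, so no fold is given.

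Triglyceride synthesis genes rose too. In the list of triglyceride synthesis and glyceroneogenesis genes, 2 of 14 rose by Bonferroni (1 without replicate 1 or 2, when Dgat2 lost its call) and 7 by BH, with a median change of 0.33. Gpd1, which makes glycerol 3-phosphate, gave 10.86, 10.88 and 10.37 on day 3 and 12.52, 12.48 and 13.02 on day 6 (change 1.97, SE 0.14, Bonferroni-adjusted p = 3.43e-12). Control cells were already at 15.28 on day 3 and at 15.41 on day 6. Dgat2, which adds the last acyl chain to triglyceride, gave 8.77, 8.78 and 8.63 and then 9.50, 9.45 and 9.97 (change 0.91, SE 0.13, Bonferroni-adjusted p = 0.000521), and moved by −0.28 in control cells. Lpl, the secreted lipase that frees fatty acids from lipoproteins, gave 12.87, 12.77 and 12.80 and then 13.97, 13.97 and 13.96. Its change of 1.15 (SE 0.10, Bonferroni-adjusted p = 2.77e-09) stood beside −0.02 in control cells, and the difference was 1.18 (Bonferroni-adjusted p = 1.70e-05). Among fatty acid synthesis genes, 2 of 24 rose by Bonferroni and 3 by BH. They included Scd1, the stearoyl-CoA desaturase, at 12.18, 12.32 and 11.74 on day 3 and 13.48, 13.64 and 13.42 on day 6 (change 1.44, SE 0.12). Thrsp, a regulator of lipogenesis, rose at least 1.47-fold from below background (Bonferroni-adjusted p = 7.64e-11).

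Ppargc1a, Cox8b and Car3 were also among the 12 largest rises. No gene of the respiratory chain list, which does not hold Cox8b, passed the test by Bonferroni. Ppargc1a, the coactivator PGC-1α of mitochondrial genes, gave 6.05, 6.12 and 6.95 on day 3, when 1 of 3 arrays was above background, and 7.90, 7.83 and 8.45 on day 6. Its change was 1.69 (SE 0.16, Bonferroni-adjusted p = 2.87e-08) against 0.06 in control cells. Cox8b, an isoform of a cytochrome oxidase subunit, rose at least 1.64-fold from below background (Bonferroni-adjusted p = 1.19e-06). Car3, the muscle and fat isoform of carbonic anhydrase, gave 6.78, 6.92 and 6.56 and then 8.83, 9.01 and 9.08 (change 2.22, SE 0.21, Bonferroni-adjusted p = 2.16e-08). Among these 60 oxidative phosphorylation genes, limma's test by Bonferroni called 0, 1 rose and 1 fell by BH, and 5 were higher and 3 lower at an unadjusted p under 0.05.

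**Figure D2:**
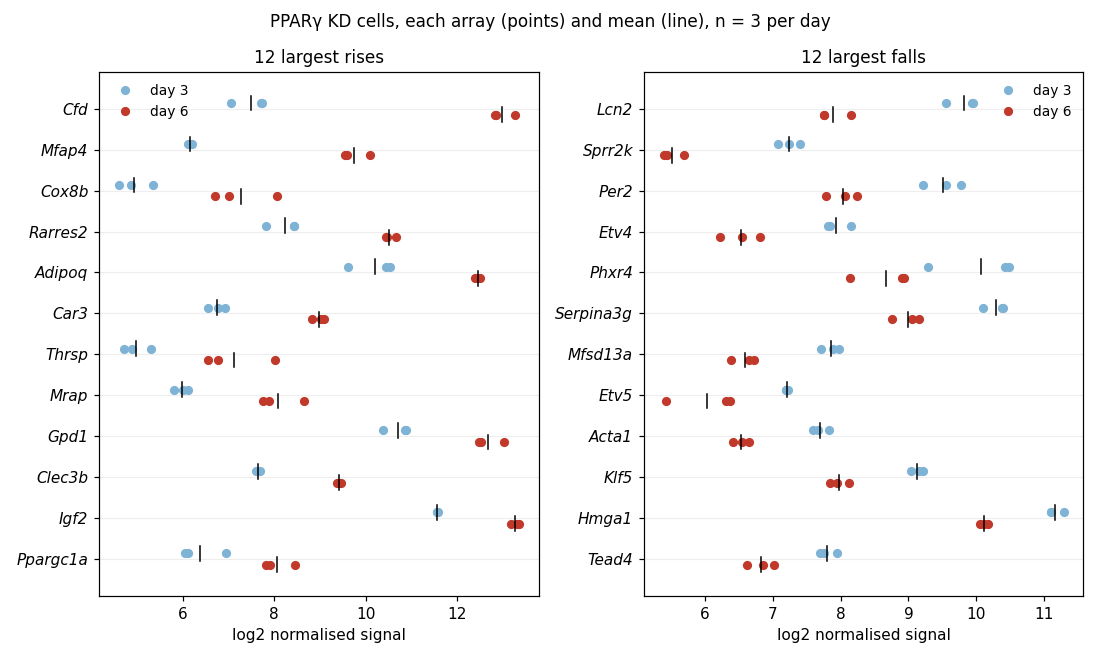
Log2 signal (x axis) in PPARγ KD cells of the 12 largest rises and 12 largest falls (y axis), with 1 point per array, a line at each mean of 3, and day 3 and day 6 in different colours. Cfd has the widest gap, from a mean of 7.50 to 12.98.

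Matrix genes rose as well. Of 37 laminin, fibronectin and matrix glycoprotein genes, 8 rose by Bonferroni and 18 by BH, with a median change of 0.29. Without replicates 1, 2 and 3 the Bonferroni count was 5, 5 and 7 and the BH count 11, 11 and 16. With arrays scaled to equal medians the Bonferroni count was 5 and the BH count 10. Mfap4, a protein of elastic microfibrils, gave 6.20, 6.11 and 6.14 on day 3, on no array above background, and 9.58, 9.54 and 10.09 on day 6. It rose at least 9.05-fold (Bonferroni-adjusted p = 2.65e-19), and in control cells too it was above background on no day 3 array and on all 3 day 6 arrays. Dpt, or dermatopontin, a matrix protein that binds decorin, gave 10.63, 10.62 and 10.03 and then 12.19, 12.08 and 11.48 (change 1.49, SE 0.14). Eln, or elastin, gave 6.70, 6.77 and 6.16 and then 7.94, 8.07 and 7.88 (change 1.42, SE 0.19). The days did not overlap in any of these 3 genes. Fbln1, a fibulin of basement membranes and elastic fibers, changed by 1.33 (SE 0.15; not called by Bonferroni without replicate 3), with replicate 3 at 6.68 and 8.21 where the other two were at 8.53 and 8.75 and then 9.75 and 9.99. Clec3b, or tetranectin, a secreted protein that binds plasminogen, gave 7.64, 7.68 and 7.60 and then 9.38, 9.45 and 9.42 (change 1.78, SE 0.21). Eln and Clec3b each lost the Bonferroni call in 1 of the 3 fits that left out a replicate. Dpt kept its call in those 3 fits and lost it in 1 fit with another setting. In the fibrillar and other collagens, 1 of 26 rose and 1 fell by Bonferroni, and none passed without replicate 1. Col1a2, a chain of type I collagen, gave 11.77, 11.98 and 9.93 and then 12.72, 12.81 and 10.64. Each replicate rose although the days overlap, and the change was 0.83 (SE 0.12, Bonferroni-adjusted p = 0.000677). Col7a1, the anchoring fibril collagen, fell by 0.74 on the log2 scale.

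Matrix proteases rose too. In the list of metalloproteinases and their inhibitors, 4 of 18 rose by Bonferroni (2 without replicate 1) and 6 by BH, with a median change of 0.28. With arrays scaled to equal medians, 1 rose by Bonferroni and 4 by BH. Mmp13, a collagenase, gave 5.95, 5.86 and 6.51 on day 3 and 7.79, 7.54 and 7.68 on day 6, and rose at least 2.17-fold from below background (Bonferroni-adjusted p = 4.34e-08). Mmp3, or stromelysin, gave 9.47, 9.44 and 9.57 and then 10.45, 10.46 and 10.30 (change 0.91, SE 0.12), with −0.22 in control cells. Mmp2, a gelatinase, gave 14.25, 14.32 and 14.46 and then 14.97, 15.01 and 15.25 (change 0.74, SE 0.08), with 0.11 in control cells. None of these proteases had overlapping days in PPARγ KD cells. With arrays scaled to equal medians, the changes of Mmp3 (0.76) and Mmp2 (0.59) did not pass the test, and that of Mmp3 did not without replicate 1 either. The KD change exceeded the control change for Mmp13, Mmp3 and Mmp2 (Bonferroni-adjusted p = 0.0451, 0.00389 and 0.0187). The difference was 1.13 for Mmp3 and 0.63 for Mmp2. That of Mmp13 rests on day 3 values at background, so its size was not measured. These differences were not followed gene by gene without each replicate. The inhibitor Timp4 was above background on 1 of 3 day 6 arrays. Its bound of 1.08-fold was taken over all 3 day 6 arrays, the others at background, so the size of its rise was not measured. Collagen processing and crosslinking genes had 2 of 20 higher by Bonferroni, the procollagen protease Adamts2 (0.67) and the prolyl hydroxylase P3h1 (0.61). By Bonferroni none of them passed without replicate 1 or 2, or with arrays scaled to equal medians.

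In the insulin and IGF axis list, 3 of 21 rose and 1 fell by Bonferroni, and 5 rose and 2 fell by BH. The Bonferroni counts without replicate 1 were 2 and 0. The fall was that of Cav1, a coat protein of caveolae (−0.54), which lost its call whichever replicate was left out. Igf2, a fetal insulin-like growth factor, gave 11.55, 11.57 and 11.56 on day 3 and 13.30, 13.34 and 13.16 on day 6 (change 1.70, SE 0.16, Bonferroni-adjusted p = 3.48e-08). Igfbp4, which binds and holds IGFs, gave 10.21, 10.31 and 10.24 and then 11.78, 11.88 and 11.92 (change 1.61, SE 0.12). In control cells they rose by 1.54 and 1.73, and the differences of the changes, 0.17 (SE 0.23) and −0.13 (SE 0.17), did not pass the test. Of 28 genes of endoplasmic reticulum folding and the unfolded protein response, 4 rose by Bonferroni (1, 2 and 3 without replicates 1, 2 and 3) and 8 by BH (5, 4 and 7). These 4 were the transcription factors Ddit3 (0.90) and Atf4 (0.62), the phosphatase subunit Ppp1r15a (0.95) and the pseudokinase Trib3 (0.90), all of the stress branch that runs through ATF4 rather than chaperones. In the antioxidant and glutathione list, 4 of 33 rose by Bonferroni (2, 2 and 4 without replicates 1, 2 and 3) and 9 by BH (5, 6 and 8). Gstm1, a glutathione transferase, gave 12.34, 12.35 and 11.84 and then 13.17, 13.25 and 12.91 (change 0.93, SE 0.09), and Nqo1, a quinone reductase, changed by 0.64 (Bonferroni-adjusted p = 0.00275). Glutathione transferases are close copies, and their probes may share signal. Lysosome and autophagy genes had 2 of 31 higher by Bonferroni, the cysteine protease Ctsk (0.66) and the autophagosome protein Gabarapl1 (0.74), with 1 of them called in each fit that left out a replicate, and 9 by BH (3 without replicate 1). With arrays scaled to equal medians, rises by Bonferroni and BH were 1 and 5 in the endoplasmic reticulum list. They were 2 and 4 in the antioxidant list and 1 and 2 in the lysosome list. Quantile normalization gave 7, 10 and 11 rises by BH in these 3 lists.

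The largest falls were smaller than the largest rises. Lcn2, a secreted lipocalin that carries iron-binding siderophores, gave 9.95, 9.94 and 9.56 on day 3 and 8.16, 7.76 and 7.76 on day 6 (change −1.92, SE 0.14, Bonferroni-adjusted p = 1.71e-11), and changed by −1.67 in control cells. Sprr2k, a small proline-rich protein, dropped below background on day 6 and was at least 1.68-fold lower (Bonferroni-adjusted p = 1.04e-11). Serpina3g, a serine protease inhibitor from a cluster of close copies, changed by −1.30 (SE 0.13). Among 41 chemokines and inflammatory secreted proteins, 3 fell and 1 rose by Bonferroni (1, 2 and 4 fell and 0 rose without replicates 1, 2 and 3). The other falls there were Il1rl1, a receptor of interleukin 33 (−0.88), and Ccl7, a monocyte chemokine (−0.73), and the rise was that of Ptx3, a pentraxin (0.65).

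Per2, a repressor of the circadian clock, gave 9.55, 9.77 and 9.22 on day 3 and 8.06, 8.24 and 7.79 on day 6 (change −1.49, SE 0.10, Bonferroni-adjusted p = 1.48e-12). The clock activator Arntl, or BMAL1, rose by 0.70 (SE 0.12), and Nr1d1, or REV-ERBα, a repressor of Arntl, by 0.94 (SE 0.15). Dbp, a clock output factor, moved by 0.11 and did not pass the test. Of 17 clock genes, 2 rose and 1 fell by Bonferroni, Arntl lost its call whichever replicate was left out and Nr1d1 without replicate 1 or 2, and the hour of harvest was not given in the sources used here, so its part was not tested. In the glucocorticoid-responsive list, 2 of 25 rose and 2 fell by Bonferroni (1 and 1 without replicate 1). Fkbp5, a cochaperone of the glucocorticoid receptor, gave 9.87, 10.01 and 9.77 and then 9.02, 9.18 and 8.73 (change −0.91, SE 0.13). Hsd11b1, which regenerates active glucocorticoid inside cells, gave 8.95, 8.96 and 8.70 and then 10.21, 10.34 and 10.31 (change 1.42, SE 0.11). Dexamethasone had been withdrawn before both days.

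Etv4 and Etv5, ETS factors of fibroblast growth factor and ERK signalling, were among the 12 largest falls and changed by −1.41 and −1.17. The Etv5 change was −0.87 without replicate 2 and did not pass the test. Etv4 gave 7.81, 7.85 and 8.15 on day 3 and 6.22, 6.55 and 6.81 on day 6. Klf5, a zinc finger factor of early adipogenesis, gave 9.21, 9.15 and 9.04 and then 8.13, 7.94 and 7.85 (change −1.16, SE 0.12, Bonferroni-adjusted p = 7.93e-07). Hmga1, a chromatin protein of dividing cells, gave 11.11, 11.10 and 11.29 and then 10.06, 10.12 and 10.18 (change −1.04, SE 0.10), and Tead4, a DNA-binding partner of YAP, changed by −0.97 but lost its call without replicate 2 or 3. The days did not overlap in any of Etv4, Klf5 and Hmga1. Among contractile and cytoskeletal genes 2 of 27 fell by Bonferroni (none without replicate 1 or 2), Actg2, a smooth muscle actin (−0.65), and Tubb6, a tubulin (−0.64). Acta1, the skeletal muscle actin, changed by −1.16; the other 4 of 5 muscle markers were never above background, and actin genes are close copies.

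Cell cycle genes fell by smaller amounts. Of 38 replication licensing and S phase genes, 2 fell by Bonferroni and 17 by BH, with a median change of −0.30, and 30 were lower in 3 of 3 pairs. Of 43 mitosis genes none passed limma's test by Bonferroni, 18 fell by BH, and 26 were lower and 1 higher at an unadjusted p under 0.05, with a median change of −0.37. Control medians were −0.35 and −0.24. Without replicates 1, 2 and 3 the BH count was 5, 9 and 14 for S phase genes and 3, 11 and 15 for mitosis genes, and neither S phase call by Bonferroni held without replicate 1 or 2. Mcm5, a subunit of the replicative helicase, gave 12.33, 12.31 and 12.19 on day 3 and 11.62, 11.64 and 11.44 on day 6 (change −0.71, SE 0.11, Bonferroni-adjusted p = 0.00702). Rfc5, a subunit of the clamp loader, gave 9.77, 9.82 and 9.86 and then 9.18, 9.25 and 9.21 (change −0.60, SE 0.09). Both fell in each replicate with no overlap of the days. Ccnb1, the cyclin that takes cells into mitosis, gave 10.97, 11.19 and 10.31 and then 10.43, 10.51 and 9.59 (change −0.65, BH-adjusted p = 0.000428). Mki67, the proliferation marker Ki-67, gave 10.61, 10.60 and 10.37 and then 9.96, 10.16 and 9.68 (change −0.59, BH-adjusted p = 0.000473). These passed BH but not Bonferroni. In the list of CDK inhibitors and cyclin D genes, 1 of 20 rose and 2 fell by Bonferroni, and 5 rose and 5 fell by BH. Gadd45a, a growth arrest gene, rose by 0.93 (SE 0.08). Ccng1, a cyclin induced by p53, changed by −0.82 and lost its call without replicate 1, while Ccne2, a cyclin of S phase entry, was above background on 1 of 3 day 3 arrays and no day 6 array and lost its call whichever replicate was left out.

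Promoters of this list are shown because many mitotic genes carry a shared element, the CHR, whose core is TTTGAA. The windows are RefSeq sequence of GRCm38.p6, from 250 bases before to 50 after the first start of the gene, and capitals mark each match of TTTGAA or its reverse complement TTCAAA. Such a match was found in 25 of the 36 mitosis genes with a window (69.4%), against 18.1% of all 27025 genes. This share, like those of the other motifs below, counts every listed gene with a window, changed or not. It describes how the list was made up and not these arrays. Mki67 lies at chr7:135716330-135716629, strand -, Top2a, a DNA topoisomerase, at chr11:99024140-99024439, strand -, and Cdc20, an activator of the anaphase-promoting complex, at chr4:118437294-118437593, strand -. The 3 printed had the largest falls among the genes of the list that passed BH and hold a match. Genes of a single chromosome had been left out of this choice.
Mki67: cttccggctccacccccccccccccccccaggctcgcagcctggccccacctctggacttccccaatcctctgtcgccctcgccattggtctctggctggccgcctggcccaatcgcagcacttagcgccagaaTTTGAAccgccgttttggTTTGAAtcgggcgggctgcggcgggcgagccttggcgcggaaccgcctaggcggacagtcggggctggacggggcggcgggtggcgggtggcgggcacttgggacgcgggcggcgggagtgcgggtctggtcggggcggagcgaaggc
Top2a: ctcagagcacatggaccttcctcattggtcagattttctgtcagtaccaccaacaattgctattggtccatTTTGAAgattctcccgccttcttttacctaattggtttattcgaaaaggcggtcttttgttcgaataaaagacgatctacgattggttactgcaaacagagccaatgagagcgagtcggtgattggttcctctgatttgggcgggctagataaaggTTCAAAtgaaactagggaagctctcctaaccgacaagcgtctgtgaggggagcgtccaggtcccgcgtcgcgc
Cdc20: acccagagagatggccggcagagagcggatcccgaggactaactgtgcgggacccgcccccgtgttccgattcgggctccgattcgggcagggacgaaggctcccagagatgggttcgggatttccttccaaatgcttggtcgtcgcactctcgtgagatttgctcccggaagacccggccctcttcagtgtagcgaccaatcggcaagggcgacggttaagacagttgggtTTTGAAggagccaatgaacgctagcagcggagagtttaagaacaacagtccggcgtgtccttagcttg
In these windows the matches begin 116 and 98 bases before the start in Mki67, 179 and 23 in Top2a and 18 in Cdc20. Top2a changed by −0.59 and Cdc20 by −0.57 (BH-adjusted p = 0.00104 and 0.00163). In the S phase list, TTCCCGC, a form of the E2F element, or its reverse complement GCGGGAA was in 12 of 32 windows (37.5%), against 4.66% of all genes. AGGTCA, the hexamer that PPARγ and other nuclear receptors bind, or TGACCT, was in 3 of 14 windows of lipid droplet genes (21.4%) and 2 of 12 of adipocyte secreted proteins (16.7%), against 16% of all genes. PPARγ sites often lie far from promoters, and these windows hold no distal sequence.

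Control cells over the same days gave more changes, 461 higher (1.87% of probes) and 162 lower (0.658%). The direction was mostly shared. Of the 212 rises in PPARγ KD cells, 201 were also higher in control cells (94.8%, against 43.6% of all probes), with a median control change of 0.68. Of the 126 falls, 123 were also lower (97.6%, against 56.4%), with a median of −0.44. The test of the difference between the changes passed for 135 probes, 37 with the higher change in PPARγ KD cells (0.15% of probes) and 98 with the lower (0.398%). Of these 98, 90 were probes called higher in control cells. Without replicates 1, 2 and 3 the count of 135 became 27, 32 and 122.

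**Figure D3:**
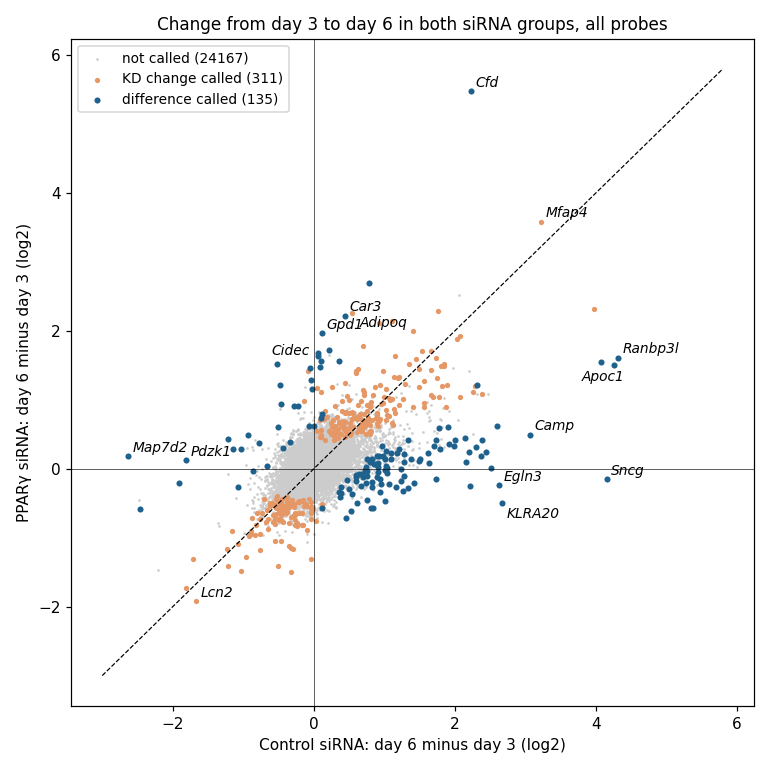
Day 6 minus day 3 log2 change of each probe in PPARγ KD cells (y axis) against the change in control cells (x axis), with the line of equal change. The 135 probes whose changes differ are marked, 37 above and 98 below the line, and 311 more changed in PPARγ KD cells without passing the test of the difference.

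The largest differences on the low side were in genes that rose more in control cells. Sncg, γ-synuclein, a protein abundant in neurons and fat cells, changed by −0.15 in PPARγ KD cells and by 4.16 in control cells, a difference of −4.31 (SE 0.25, Bonferroni-adjusted p = 1.09e-14). Apoc1, an apolipoprotein, changed by 1.56 and 4.07. Egln3, a prolyl hydroxylase that marks hypoxia-inducible factor for destruction and is itself induced by it, gave 8.12, 8.40 and 8.03 on day 3 and 7.93, 8.0 and 7.90 on day 6 in PPARγ KD cells. In control cells it gave 8.99, 8.86 and 8.58 and then 11.76, 11.69 and 10.88, so the difference of the changes was −2.88 (SE 0.20, Bonferroni-adjusted p = 2.50e-12).

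In the lists of hypoxia-responsive and glycolysis genes, more members rose in control cells. In the hypoxia-responsive list, none of 18 genes passed limma's test by Bonferroni in PPARγ KD cells, 3 rose and 2 fell by BH, and 5 were higher and 4 lower at an unadjusted p under 0.05. Control cells had 13 of 18 higher by Bonferroni, and the difference was lower in PPARγ KD cells for 8 of 18. The list's median was 0.86 in control cells and 0.03 in PPARγ KD cells, where it became −0.04 by quantile normalization and −0.12 by equal array medians. Pgk1, a glycolytic kinase, gave 13.71, 13.79 and 13.42 on day 3 and 13.35, 13.26 and 12.96 on day 6 in PPARγ KD cells (change −0.45, BH-adjusted p = 0.000593), and changed by 0.75 in control cells. Ldha, which makes lactate, changed by −0.49 and 0.62, and the differences were −1.21 for Pgk1 and −1.11 for Ldha (Bonferroni-adjusted p = 3.83e-07 and 3.67e-05). Vegfa, an angiogenic factor, changed by 0.60 in PPARγ KD cells (BH-adjusted p = 0.000891). Of 18 glycolysis genes, none passed by Bonferroni in PPARγ KD cells, 2 rose and 4 fell by BH, and 4 were higher and 5 lower unadjusted, while 11 rose by Bonferroni in control cells. The median of that list was 0.06, and −0.09 by equal array medians.

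Hypoxia-inducible factor binds ACGTG, and promoters of genes with the largest contrast are shown for that reason. Egln3 lies at chr12:54203825-54204124, strand -, Ankrd37, an ankyrin repeat protein, at chr8:45999801-46000100, strand -, and Pgk1 at chrX:106186850-106187149, strand +. Capitals mark ACGTG or its reverse complement CACGT, in windows made as above. The 3 genes had the lowest differences among those of the list that passed the test of the difference and hold a match. The same chromosome had been left out of this choice.
Egln3: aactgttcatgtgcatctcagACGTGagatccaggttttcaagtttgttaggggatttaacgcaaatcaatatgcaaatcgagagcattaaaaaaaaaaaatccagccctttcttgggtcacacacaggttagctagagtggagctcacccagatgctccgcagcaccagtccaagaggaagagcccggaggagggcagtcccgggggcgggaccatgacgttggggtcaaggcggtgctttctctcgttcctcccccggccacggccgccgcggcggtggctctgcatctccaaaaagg
Ankrd37: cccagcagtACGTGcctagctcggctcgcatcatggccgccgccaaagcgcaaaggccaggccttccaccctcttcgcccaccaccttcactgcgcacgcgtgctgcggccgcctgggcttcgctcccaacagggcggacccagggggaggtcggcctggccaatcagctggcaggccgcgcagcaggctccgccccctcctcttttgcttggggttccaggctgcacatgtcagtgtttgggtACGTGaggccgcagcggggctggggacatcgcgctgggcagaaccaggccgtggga
Pgk1: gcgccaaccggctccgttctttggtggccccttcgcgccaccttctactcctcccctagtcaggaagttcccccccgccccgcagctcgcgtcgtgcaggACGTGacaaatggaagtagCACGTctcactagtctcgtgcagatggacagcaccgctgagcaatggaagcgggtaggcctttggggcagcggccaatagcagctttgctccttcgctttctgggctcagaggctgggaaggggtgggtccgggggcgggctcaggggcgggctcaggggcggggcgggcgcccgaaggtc
The matches begin 229 bases before the start in Egln3, 241 and 6 in Ankrd37 and 150 and 131 in Pgk1. The motif was in 13 of 17 windows of the list (76.5%), against 19.7% of all genes. This share too counts every listed gene with a window, changed or not, in a list chosen for known hypoxia responses. Ankrd37 changed by −0.26 in PPARγ KD cells and 2.21 in control cells, a difference of −2.47 (Bonferroni-adjusted p = 2.21e-07).

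Cholesterol synthesis genes also rose in control cells. None of 22 passed limma's test by Bonferroni in PPARγ KD cells, 2 rose and 1 fell by BH, and 5 were higher and 3 lower unadjusted, with a median of 0.14 that became −0.00 by equal array medians. Control cells had 13 of 22 higher by Bonferroni and a median of 0.73, and the difference was lower in PPARγ KD cells for 10. Insig1, which holds the sterol sensor in the endoplasmic reticulum, changed by 0.42 (BH-adjusted p = 0.0345) against 1.74 in control cells (difference −1.31, Bonferroni-adjusted p = 0.000562). Stard4, a cholesterol carrier, changed by −0.29 (BH-adjusted p = 0.0245) against 0.50.

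**Figure D4:**
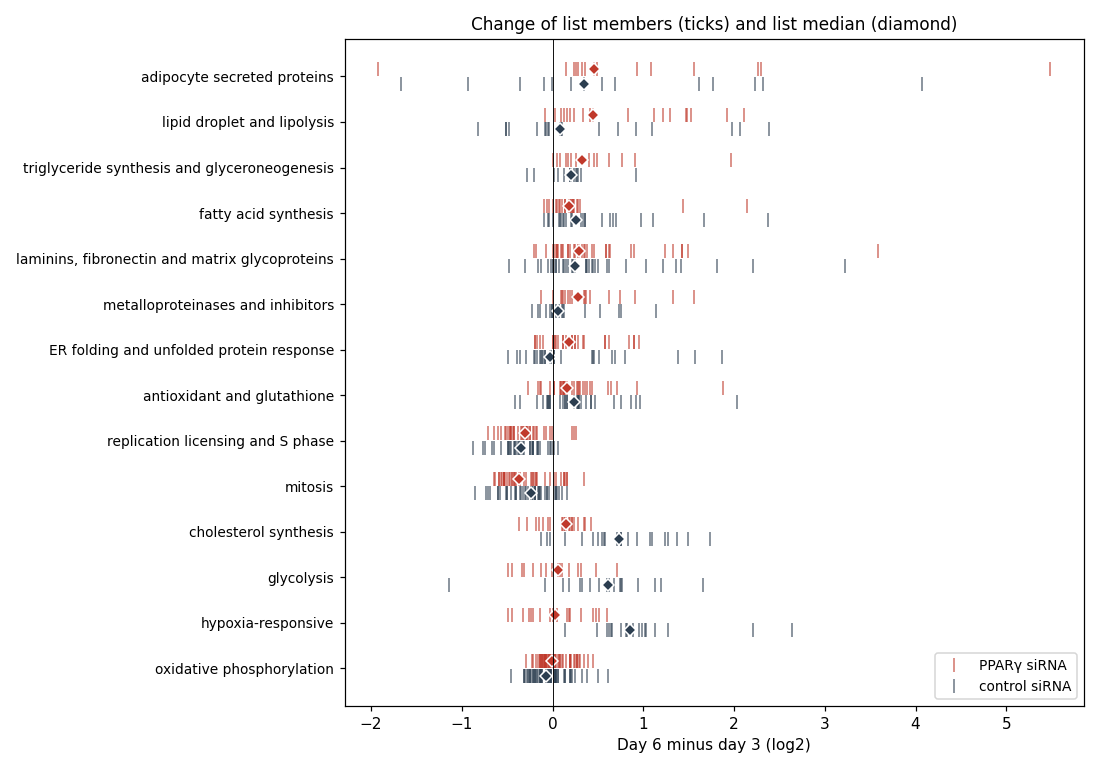
Day 6 minus day 3 log2 change (x axis) in PPARγ KD and control cells of the genes of 14 lists (y axis), with a tick for each gene and a diamond at the list's median. Mitosis sits at −0.37 and adipocyte secreted proteins at 0.46 in PPARγ KD cells, and hypoxia-responsive and cholesterol lists sit at 0.03 and 0.14 against 0.86 and 0.73 in control cells.

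On the other side of the difference, the change was higher in PPARγ KD cells. Of these 37 probes, 22 were called higher in PPARγ KD cells, 10 were called lower in control cells and 5 had neither change called. The first kind included Cfd, which also rose in control cells, and Gpd1, Lpl, Cidec and Ppargc1a, whose control changes did not pass the test. Control day 6 means were 15.53 for Cfd and 15.41 for Gpd1, and whether signal saturation limited their control changes was not tested. The second kind included Map7d2, a microtubule-binding protein, and Pdzk1, a scaffold protein. Both were above background on all 3 control arrays of day 3 but on no control array of day 6 and no PPARγ KD array of either day, so the sizes of their changes were not measured.

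The labelled cell type was checked by its markers. All 8 fibroblast markers were above background on both days, with summed signals of 79490 to 83870 on day 3 and 96910 to 105900 on day 6. Of 10 adipocyte markers, 6 were above background on no PPARγ KD array, among them Fabp4, Lep and Retn. Whether these probes were above background in control cells is not given here. They therefore do not show what the knockdown did to these genes. The list's summed signal was 1591 to 2479 on day 3 and 14600 to 17270 on day 6, against 46150 to 65240 and 96390 to 105300 in control cells. On day 6 most of that signal came from Cfd and Adipoq, in both PPARγ KD and control cells. Of 4 preadipocyte markers, 2 were above background on day 3 and 3 on day 6, with summed signals of 20300 to 23910 and then 23250 to 29920. Of 4 chondrocyte markers, Sox9, Comp and Acan were above background on both days, with summed signals of 7264 to 7985 and then 8828 to 9408, while Col2a1, the type II collagen that defines cartilage, was not. Endothelial (5), osteoblast (5) and epithelial (4) markers were never above background, and 5 of 6 macrophage or leukocyte markers were not either, with a summed signal of 418.5 to 493.4 and then 329.7 to 470.5. The share of cells that differentiated was not measured by the arrays, so its part in the rises was not tested.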

How the data were processed

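Total RNA from 48 samples of 3T3-L1 cells (2 siRNAs, 8 days, 3 replicates) had been hybridised to Illumina MouseRef-8 arrays, one colour. The authors deposited 1 table, exported from BeadStudio 3.3.7 with no normalization per the file header: for each probe and array a mean signal intensity, the number of beads, and a detection value, a fraction that is 1 minus the detection p. The rank-invariant normalization and analysis of variance with removal of a batch effect that the study's methods name are not in the deposited values.

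Signal intensity was background-corrected with nec of limma 3.58.1 (R 4.3.3; normexp on the detection p, offset 16). Arrays were then scaled by a median ratio over rank-invariant probes, those between the 50th and 90th percentile of mean signal whose rank moved by under 0.05 of all ranks, and taken to log2. A limma model was fitted to all 48 arrays (lmFit, eBayes), in which every combination of siRNA and day had its own mean and replicate numbers formed a block. Two-sided p-values were adjusted over 24613 probes by Bonferroni (called at 0.05 or less), with Benjamini-Hochberg beside it. No probe was filtered in the fit, and a median of 35 beads lay behind each value. Deposited median signals of the 6 arrays were 107.3 to 141.7 and the scale factors of all 48 were 0.730 to 1.58. The number of arrays, 3 a group, limits the precision.

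Replicate numbers come from the labels. Deviations of day 3 and day 6 arrays from their group means correlated at 0.649, 0.847 and 0.922 for numbers 1 to 3, each over the 0.1 set for treating the numbers as pairs. Replicates 1 and 2 correlated with each other as well (0.651 and 0.714), and both went against replicate 3 (−0.885 to −0.727), so the deviations separate replicate 3 from the others and do not tell number 1 from number 2. The hybridisation batch of each array was not given in the sources used here and was not a term of the fit.

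A gene was represented by its brightest probe over the 48 arrays. Of 18991 target names, 13869 matched a current RefSeq symbol (GRCm38.p6), 3473 a synonym, and 1649 were kept as in the file. The genes named were the 12 largest rises and falls and the 6 largest differences in each direction among called probes above background on all arrays of a day, called or bright members of gene lists, and Pparg, while 41 called probes with clone names were not named. A gene above background on no array of a day has only a bound there: the mean of the brighter day over the mean, per array, of the higher of its own value and the lowest signal above background ("at least"). The members and lists were chosen with earlier results of these data known.

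On simulated data with the real means and spread, the fit called 89 of 100 probes changed by 1 on the log2 scale, 66 of 100 changed by 0.7, and 0 unchanged probes. Alternatives were quantile normalization, equal array medians, no background correction, an offset of 50, no block, moderation with trend, ordinary p-values, fewer arrays and leaving out each replicate. Promoter windows were searched with Python 3.11.15 and figures drawn with matplotlib 3.10.9.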

Additional observations from a re-analysis of the deposited data

Results flagged for a closer look

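The genes named for the size of their change, or of its difference between PPARγ KD and control cells, held 13 whose changes differed by limma's test of the difference. Other genes that pass it are given with their lists above. In the KD-higher direction the fitted differences on the log2 scale were 3.25 for Cfd (Bonferroni-adjusted p = 1.28e-09), 2.04 for Cidec (0.00193), 1.85 for Gpd1 (5.41e-07), 1.78 for Car3 (0.0150) and 1.63 for Ppargc1a (0.000412). Ppargc1a was above background on 1 of 3 PPARγ KD arrays of day 3. Control signals of Cfd and Gpd1 were high, and whether saturation limited their control changes was not tested. The fit also gave 2.82 for Map7d2 (4.56e-07) and 1.93 for Pdzk1 (1.23e-05), but neither was above background on any PPARγ KD array of days 3 and 6 or any control array of day 6, so a fall in PPARγ KD cells could not be seen and these sizes are not measured.

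In the KD-lower direction the fitted differences were −4.31 for Sncg (Bonferroni-adjusted p = 1.09e-14), −2.88 for Egln3 (2.50e-12) and −2.51 for Apoc1 (1.32e-08), the last with changes of 1.56 in PPARγ KD cells and 4.07 in control cells. Sncg was above background on 2 of 3 and 1 of 3 PPARγ KD arrays of days 3 and 6. The fit also gave −3.17 for the probe named KLRA20 (0.000157), −2.70 for Ranbp3l (4.56e-07) and −2.57 for Camp (1.78e-05), whose sizes rest on values at background: KLRA20 was not above it on any PPARγ KD array of these days, Ranbp3l on no day 3 array of either siRNA, and Camp on no PPARγ KD array of day 3. The gene behind KLRA20 is uncertain, since that family consists of close copies.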

How the results depend on the processing

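The count of 338 changed probes was 204 with arrays scaled to equal medians, of which 76 were higher, 137 with no replicate block, 36 from the 6 arrays alone, 2322 by Benjamini-Hochberg, and 86 to 248 when 1 replicate was left out. The count of 135 differences between PPARγ KD and control changes was 51 with no replicate block, 38 from the 12 arrays alone, 524 by Benjamini-Hochberg, and 27 to 122 when 1 replicate was left out. The change of Pparg was 0.77 with equal medians (Bonferroni-adjusted p = 0.634), 0.92 from the 6 arrays alone (0.171), and 0.920 to 0.923 when 1 replicate was left out, with an adjusted p of 0.0501 without replicate 2. The pairing block ended no call of Pparg. Of 78 named genes called, 29 were called under each of 9 alternatives and 78 kept their direction under them, and 32 of 48 lists kept the sign of their median under the alternatives run for lists. The list counts without each replicate, without the block and under other scalings were added after the data were seen. Signal near background limits the low genes: 34 probes that rose were above background on no day 3 array, and 4 that fell on no day 6 array.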
